A study of Mus musculus with 2 samples.

Results

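Enhancer sites with several GATA motifs were described in Gata3 ChIP-seq of TH2 cells. Gata3 is the transcription factor that directs helper T cells towards the TH2 fate. GATA factors bind DNA through zinc fingers that read a short core, written here as WGATAR (W is A or T, R is A or G) and found on either strand. Most GATA proteins carry a pair of such fingers, and neighbouring or palindromic cores are known to bind a GATA protein in another way than a lone core does. GATA sites away from gene starts are known from the TH2 cytokine locus, where distal elements regulate *Il4*, *Il5* and *Il13*.

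The data were 2 libraries of the same condition, replicates 1 and 2, made from splenic TH2 cells that had been expanded in vitro. Chromatin was crosslinked for 5 min, precipitated with the anti-GATA3 antibody D13C9 and cut on the beads by a transposase that also adds the adaptors (ChIPmentation). No genotype, age, sex or further treatment is given in the labels, and nothing in them says whether the replicates came from separate cultures or animals. The extraction protocol names ILC2, a related innate cell, where all other labels name TH2 cells, and no control precipitation or input DNA was used here, so that read density at a site was not corrected for how open or how easily tagmented the DNA is. Differences between the libraries therefore measure only the spread between these samples, which may be technical, and the read names carry a different sequencing instrument in each library, so run and replicate cannot be told apart.

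The sites were chosen by reads and by sequence. Chromosomes 1 to 19 were cut into bins of 200 bp, each read was counted 100 bp downstream of its 5′ end, and counts were scaled to reads per 1000000 counted reads (RPM). A site is a run of touching bins with at least 0.8 RPM in both libraries, and its height is the lower RPM of the libraries in its highest bin, the centre bin. Enhancer here means only that the centre lies 1 to 100 kb from the nearest start of a protein-coding gene. Of 10800 sites, 8081 were enhancer sites by this distance, and 1592 of these (19.7%) held 2 or more WGATAR and no TGASTCA, the AP-1 motif (S is C or G), within 100 bp of the centre. The other enhancer sites held 1 WGATAR alone (3031), neither motif (2260), both motifs (767) or AP-1 alone (431). The height and the number of motifs chose these sites and are therefore given as descriptions, without a test.

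The counted reads numbered 39287837 in library 1 and 24084150 in library 2, so that the limit of 0.8 RPM stood for 32 and 20 reads. Counting intervals below are exact 95% binomial intervals and cover counting error only. All 8 TH2 marker genes looked up (*Gata3*, *Il4*, *Il5*, *Il13*, *Il1rl1*, *Ccr4*, *Ccr8* and *Maf*) had the nearest start to at least 1 site of any kind, as had 4 of 5 T cell markers. None of 3 B cell markers and none of 3 myeloid markers had a site. In longer lists of these cells 2 of 6 B cell genes and 1 of 6 myeloid genes had a site of any kind. Of all protein-coding genes 26.2% had one, so lists this short do not set these cells apart. Genes of TH1 cells (*Tbx21* and *Ifng*) did have sites, and *Cpa3*, a protease gene of mast cells, had 1. A site near a gene does not show that the gene is expressed.

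Several arrangements of neighbouring motifs are shown here because read density differed by arrangement in the bins with exactly 2 motifs described further on. Each sequence is the plus strand of GRCm38, with the WGATAR letters, or their reverse complement YTATCW (Y is C or T), in capitals, and is named by the gene with the nearest start. In the following members the motifs face away from each other and share the central base, with starts 5 bp apart (minus strand, then plus strand):
Lrfn3 (chr7:30373702-30373742, plus strand): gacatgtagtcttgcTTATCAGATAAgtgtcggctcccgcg
C1qtnf2 (chr11:43492820-43492860, plus strand): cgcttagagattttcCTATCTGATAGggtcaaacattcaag
Chaf1b (chr16:93918453-93918493, plus strand): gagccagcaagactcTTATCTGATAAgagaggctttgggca

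In these members the motifs abut head to head, with starts 6 bp apart (plus strand, then minus strand):
Emsy (chr7:98674495-98674536, plus strand): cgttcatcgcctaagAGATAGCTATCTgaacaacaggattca
Kif23 (chr9:61933498-61933539, plus strand): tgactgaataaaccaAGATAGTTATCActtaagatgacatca
Themis (chr10:28594208-28594249, plus strand): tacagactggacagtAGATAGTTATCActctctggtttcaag

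In these members both motifs lie on the same strand, with starts 12, 10 and 13 bp apart:
Bank1 (chr3:136380201-136380233, plus strand): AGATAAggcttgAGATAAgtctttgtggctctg
Cab39 (chr1:85806859-85806904, plus strand): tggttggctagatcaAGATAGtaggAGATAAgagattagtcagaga
Stk39 (chr2:68430601-68430636, plus strand): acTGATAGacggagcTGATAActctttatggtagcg

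Most members had motifs farther apart. The tallest member, near *Adipoq*, and the tallest members of *Il13*, which encodes a hallmark cytokine of TH2 cells, and of *Zfpm1*, which encodes the GATA cofactor FOG-1, are shown for comparison:
Adipoq (chr16:23175054-23175144, plus strand): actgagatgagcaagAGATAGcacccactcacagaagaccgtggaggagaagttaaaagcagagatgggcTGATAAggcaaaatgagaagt
Il13 (chr11:53655238-53655400, plus strand): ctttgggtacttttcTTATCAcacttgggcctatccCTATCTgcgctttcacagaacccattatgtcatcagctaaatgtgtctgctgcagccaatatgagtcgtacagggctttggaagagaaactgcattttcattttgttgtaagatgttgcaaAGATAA
Zfpm1 (chr8:122284531-122284583, plus strand): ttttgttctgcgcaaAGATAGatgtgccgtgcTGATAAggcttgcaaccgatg

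A small group of members held 6 or more motifs. In the sites near *Tmem123*, the member with the most motifs, and near *Pitrm1*, the tallest of the kind, part of the motifs lie in tandem repeats of the letters GATA:
Tmem123 (chr9:7797201-7797400, plus strand): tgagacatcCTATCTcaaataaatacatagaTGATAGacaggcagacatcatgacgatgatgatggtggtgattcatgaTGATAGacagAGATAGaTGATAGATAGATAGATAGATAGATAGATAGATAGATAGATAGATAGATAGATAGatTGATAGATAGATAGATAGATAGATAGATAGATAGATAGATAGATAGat
Pitrm1 (chr13:6451862-6452000, plus strand): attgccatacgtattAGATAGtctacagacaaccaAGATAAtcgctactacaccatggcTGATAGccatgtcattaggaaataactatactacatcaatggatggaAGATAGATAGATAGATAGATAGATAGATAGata

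The 1592 members were mostly modest in height. The median was 1.55 RPM in library 1 and 1.33 RPM in library 2, which corresponds to 61 and 32 reads in the centre bin. The lower RPM of the libraries had a median of 1.25 and a maximum of 5.57, with 314 members at 2 RPM or more and 32 at 4 RPM or more. Sites with 1 GATA motif had the same median of 1.25, sites with neither motif 1.15, and sites with both GATA and AP-1 motifs 1.45. The median site was 400 bp wide, and 35.9% of members were 1 bin wide. Across members the RPM of the libraries had a Spearman's rho of 0.762 (n = 1592 sites, which share libraries and were all chosen to be high in both, so no p is given).

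**Figure D1:**
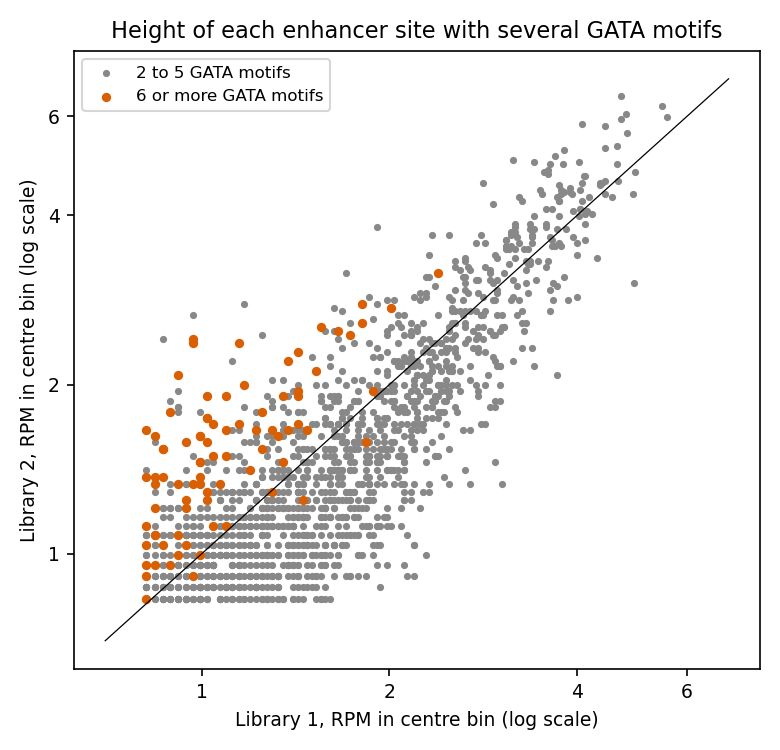
RPM in the centre bin of each of the 1592 enhancer sites with several GATA motifs, in library 1 (x axis, log scale) and library 2 (y axis, log scale). The line marks equal RPM, and the 83 sites with 6 or more motifs (orange) lie above it in 79 cases.

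The tallest member lay at chr16:23175001-23175200, 28565 bp downstream of the start of *Adipoq*, which encodes the fat-cell hormone adiponectin, in intergenic DNA. It held 219 reads in library 1 (5.57 RPM) and 144 reads in library 2 (5.98 RPM). Next came a member at chr7:98674401-98674600, 17718 bp upstream of *Emsy*, where the libraries gave 5.47 and 6.27 RPM. This is the abutting pair shown above, and it was the tallest of the 8 members whose only motifs had that arrangement. The site given to *Ccr4*, the chemokine receptor typical of TH2 cells, lay in an intron of the neighbouring gene *Glb1* at chr9:114472001-114472200. The libraries gave 4.79 and 6.06 RPM, with motifs 51 bp apart on the same strand.

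The site given to *Batf3*, which encodes a factor of the AP-1 family, lay in its own intron at chr1:191102801-191103000 and had 4.63 and 5.31 RPM in libraries 1 and 2. The tallest member of *Cytip*, which encodes a regulator of cell adhesion in lymphocytes, had 4.71 and 6.52 RPM. Both pairs ran from the minus to the plus strand, with starts 70 and 90 bp apart. The remaining members among the 12 tallest lay nearest to *Tspoap1*, *Mobp*, *Tmem44*, *Ccdc71l*, *Coro6*, *Cdk17* and *Cdyl*, with lower RPM between 4.43 and 4.81. A member near *Gtdc1* tied with those of *Cdk17* and *Cdyl* at a lower RPM of 4.43. Of these 12 sites, only that of *Cdyl* held 3 motifs and the others held 2. None passed the test of a library difference described below, and the smallest adjusted p among them was 0.178, at *Cytip* (exact binomial test, Benjamini-Hochberg adjusted over all sites).

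At the lower end, members near *Vstm5* (0.815 and 0.997 RPM in libraries 1 and 2) and *Lpp* (0.815 and 0.872 RPM) lay just inside the limit. Bins near *Actr3* (0.789 and 0.997 RPM) and *Ptprc* (0.789 and 1.29 RPM), each with 2 motifs, lay just outside it.

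The same read density was then asked of sequence alone, which the choice of sites does not enter. All bins without an AP-1 motif 1 to 100 kb from a gene start were grouped by their number of GATA motifs, with bins left out where 50% or more of the bases were soft-masked as repeats in the reference. From 0 to 5 motifs, mean density in these bins was higher with each further motif in both libraries. It was 0.106 RPM per bin with no motif, 0.117 with 1, 0.129 with 2, 0.138 with 3, 0.155 with 4 and 0.166 with 5 in library 1. In library 2 it was 0.109, 0.114, 0.119, 0.122, 0.133 and 0.151 RPM. The standard errors over bins were at most 0.000333 RPM for 0 to 2 motifs and at most 0.00599 RPM for 5 motifs. Bins are not replicates, and these errors do not hold the spread between cultures.

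The share of these bins that reached 0.8 RPM in both libraries followed the same order up to 5 motifs. It was 0.241% with no motif (interval 0.235 to 0.247%), 0.444% with 1 (0.433 to 0.456%), 0.613% with 2 (0.586 to 0.642%), 0.731% with 3 (0.662 to 0.806%) and 1.16% with 4 (0.943 to 1.40%). Bins with 5 motifs passed in 1.18% (0.734 to 1.80%), within the interval of those with 4. In bins without any soft-masked base the order was not seen up to 5 motifs. Library 1 had 0.160, 0.170 and 0.163 RPM for 3, 4 and 5 motifs, and library 2 had 0.143, 0.143 and 0.142 RPM. The standard errors over the 381 bins with 5 motifs were 0.0160 and 0.0173 RPM, so the step from 4 to 5 lies within the error. Of these bins 17.1% held no read in either library, against 6.50% with 4 motifs. With all bins counted, whether masked or not, the share with several motifs was 1.47 times that with 1, and it was 0.931% with 4 motifs and 0.767% with 5.

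**Figure D2:**
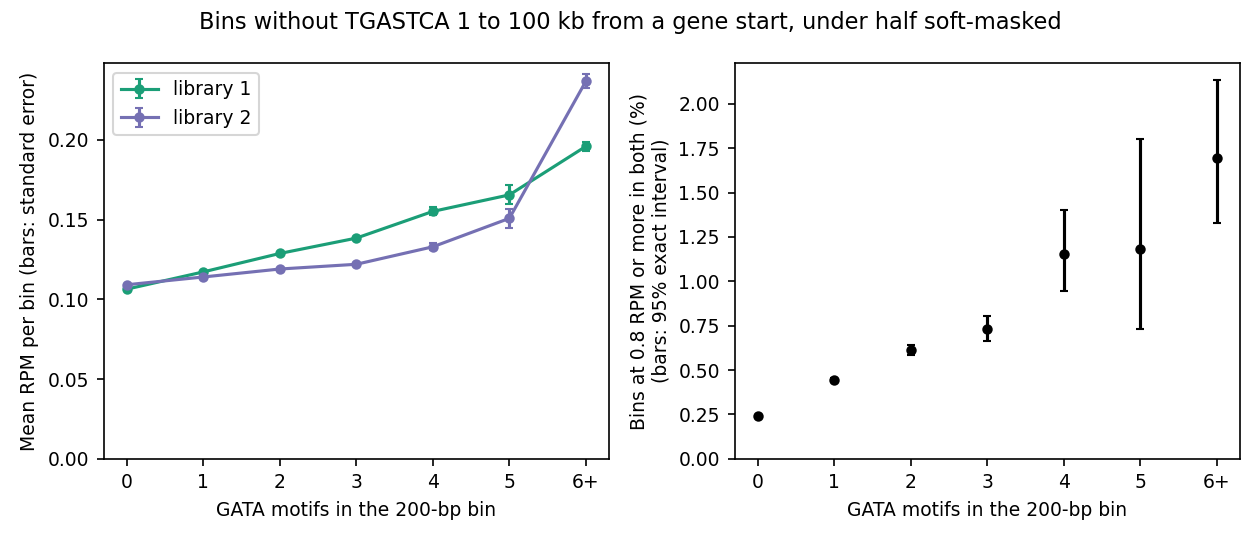
Read density by number of GATA motifs in all bins without an AP-1 motif 1 to 100 kb from a gene start, with under 50% of bases soft-masked. Left, mean RPM per bin in each library with the standard error over bins; right, percentage of bins at 0.8 RPM or more in both libraries with the exact 95% interval. Density in library 1 goes from 0.106 RPM without a motif to 0.166 RPM with 5 motifs, and the bins with 6 or more motifs are the only ones of those with at least 1 in which library 2 lies higher.

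A check on the height of members that avoids their own choice read the sites in the library that did not choose them. Sites were chosen in library 2 alone at the same limit and read in library 1. Those with several motifs had a median of 1.32 RPM there, against 1.35 RPM with 1 motif and 1.15 RPM with neither motif, and without the sites of 6 or more motifs the median for several motifs was 1.43 RPM. In the reverse direction, sites chosen in library 1 and read in library 2 had a median of 0.872 RPM in each of these kinds. Several motifs thus gave a higher median than 1 motif only when read in library 1 and without the sites of 6 or more motifs.

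**Figure D3:**
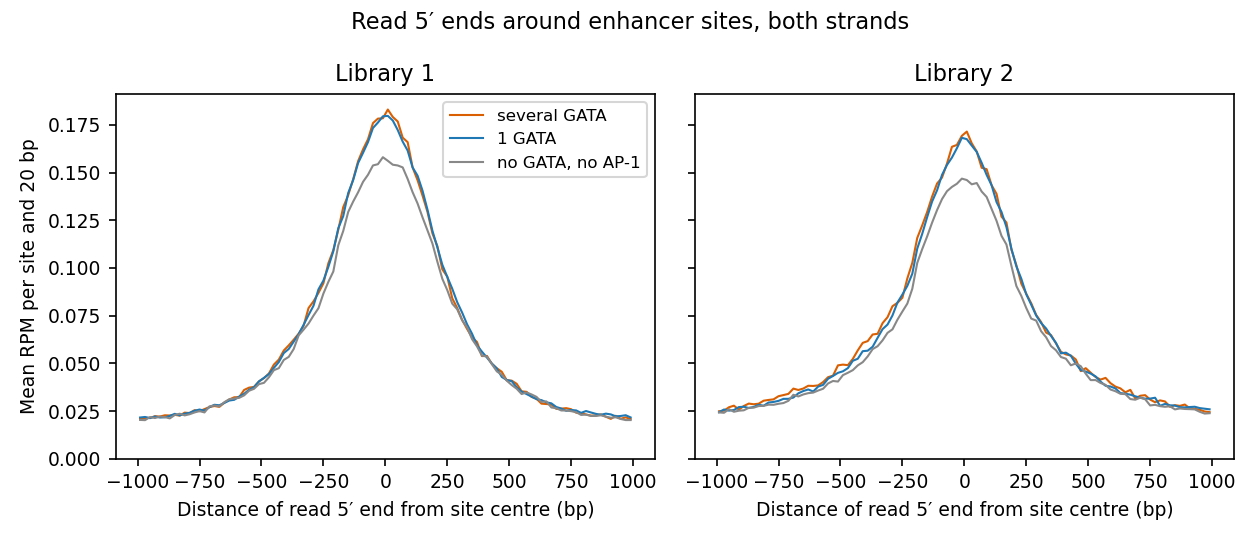
Mean RPM of read 5′ ends (both strands, not shifted) per site in steps of 20 bp around the centre of enhancer sites with several GATA motifs, with 1 and with neither GATA nor AP-1, in each library. The curves for several motifs and for 1 lie on each other, with maxima of 0.183 and 0.180 RPM in library 1 and 0.171 and 0.168 RPM in library 2. All sites were chosen by their height at the centre in these libraries.

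Around the centre of members, 5′ ends on the plus strand were most frequent 50 bp before the centre and those on the minus strand 50 bp after it in library 1. In library 2 these positions were 30 bp before and 10 bp after the centre. The window reached 1 kb to either side of the centre. The maximum was 8.23 times the density at its edges in library 1 and 6.30 times in library 2. Sites with 1 motif gave 7.90 and 6.26 times. Each centre was chosen as the highest bin of a site in these same libraries, so a maximum there follows from the rule.

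How the motifs lay to each other was not used to choose the members. For bins with exactly 2 GATA motifs, spacing was taken from the start of the left motif to the start of the right motif, and the orientation from their strands. Of 108 combinations of orientation and spacing up to 40 bp, the 3 highest in both libraries were the same. They were the abutting plus-then-minus pair at 6 bp, the same-strand pair at 12 bp and the same-strand pair at 13 bp. The groups described here (minus then plus at 5 bp, plus then minus at 6 bp, and same strand at 8 to 13 bp) were chosen after these values were seen, and together they hold 8 combinations. All 8 were the highest 8 of the 108 in library 1, and 6 of them were among the highest 8 in library 2, to which the same-strand pairs at 9 and 10 bp did not belong. The same-strand pair at 5 bp came next in library 1 with 0.147 RPM, equal to that at 10 bp within the standard error.

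The abutting pair had 0.210 ± 0.0125 RPM (standard error over 673 bins) in library 1 and 0.166 ± 0.0127 RPM in library 2. The next spacing in that orientation, 7 bp, had 0.122 and 0.113 RPM. Other pairs are those outside the described arrangements and not on the same strand at 4 bp. Their mean was 0.127 RPM in library 1 and 0.118 RPM in library 2. Against it the abutting pair was 1.65 times as dense in library 1 and 1.41 times in library 2. It passed the limit in 13 of 673 bins (1.93%, interval 1.03 to 3.28%), against 0.587% (0.559 to 0.616%) of other pairs. A high pass share was also found outside the described arrangements, at 38 bp in the same orientation, where 11 of 598 bins passed (1.84%, 0.922 to 3.27%) with densities of 0.146 and 0.135 RPM.

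The palindrome with a shared base had 0.163 ± 0.00764 RPM in library 1 and 0.147 ± 0.00724 RPM in library 2 over 1252 bins, 1.29 and 1.25 times other pairs. At 6 bp in the same orientation the density was 0.128 and 0.125 RPM. It passed the limit in 1.28% of bins (0.732 to 2.07%).

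Same-strand pairs at 8 to 13 bp were far more common, with 12027 bins, and had 0.167 ± 0.00214 RPM in library 1 and 0.141 ± 0.00185 RPM in library 2, 1.32 and 1.197 times other pairs. Within this range the density was highest at 12 bp (0.190 and 0.155 RPM) and at 13 bp (0.181 and 0.151 RPM). At 14 bp it was 0.138 and 0.124 RPM, and at 7 bp it was 0.130 and 0.123 RPM. The density at 8 bp was 0.168 and 0.142 RPM, above that at 10 bp (0.147 and 0.131 RPM). The pass share was 1.14% (0.957 to 1.35%). Pairs of the same strand at 4 bp, which make up the repeat of the letters GATA, had 0.125 and 0.123 RPM, near the value of other pairs. Bins without any soft-masked base are a part of those by which the arrangements were picked. There the 3 arrangements had ratios to other pairs of 1.24 to 1.56 in library 1 and 1.16 to 1.49 in library 2, which is no independent check.

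**Figure D4:**
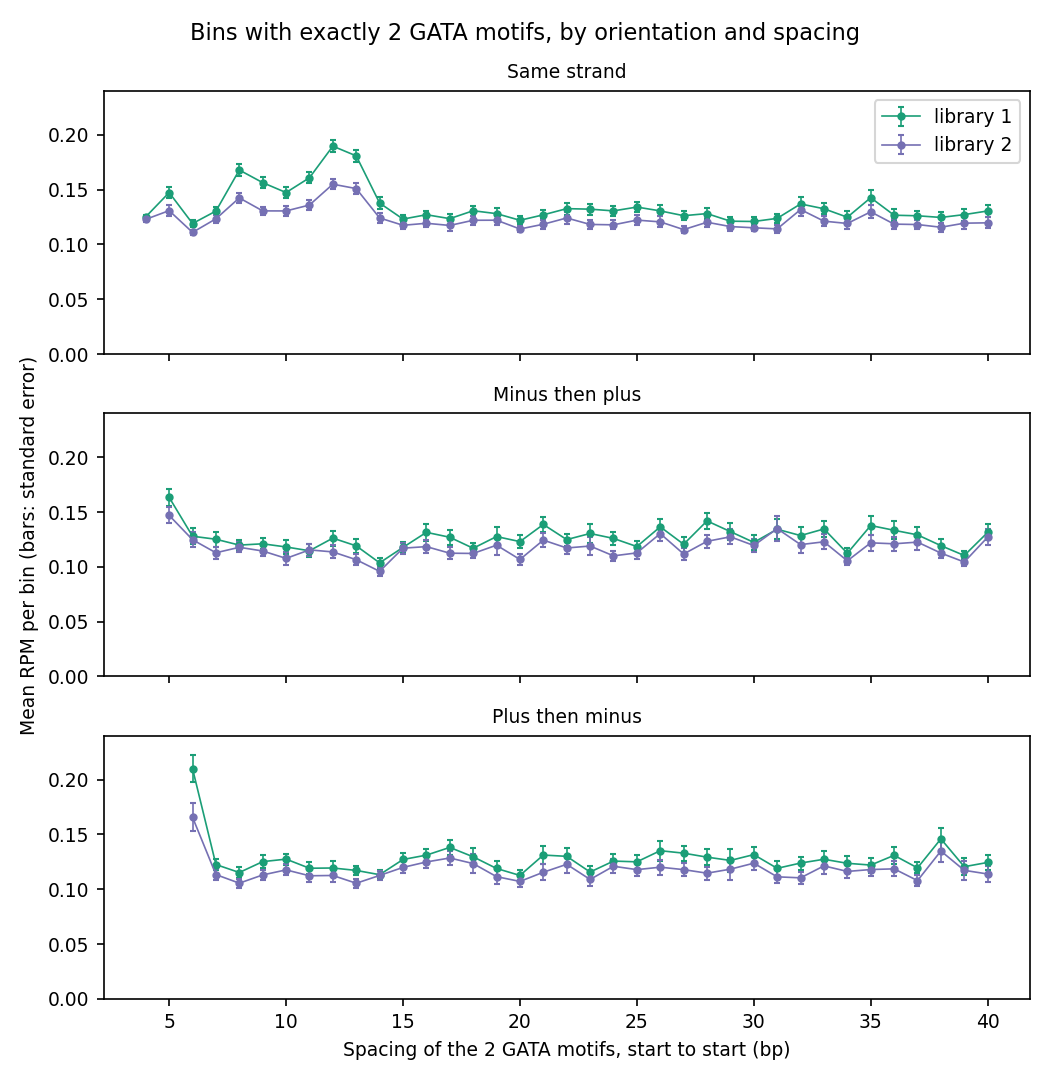
Mean RPM per bin (standard error over bins) by spacing of the motifs in bins with exactly 2 GATA motifs and under 50% soft-masked bases, for pairs on the same strand, minus then plus and plus then minus, in each library. Density stands out at 6 bp for plus then minus (0.210 RPM in library 1), at 5 bp for minus then plus (0.163 RPM) and on the same strand at 12 bp (0.190 RPM) and 13 bp (0.181 RPM), while on the same strand 10 bp lies level with 5 bp in both libraries.

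Among the 1161 members with exactly 2 motifs, 104 (8.96%) held the same-strand pair at 8 to 13 bp, 11 the palindrome with a shared base and 8 the abutting pair. In windows 1 kb to either side of the sites that also held exactly 2 motifs, 6 of 179 (3.35%) held the same-strand pair at that spacing. Of all bins with exactly 2 motifs, 3.54% did. The arrangement was picked for its read density in the same libraries, by which members were chosen too, so these shares restate that density and are no further evidence. Counting any neighbouring pair in the 1509 members with 2 to 5 motifs, 177 (11.7%) held the same-strand arrangement, 17 the palindrome and 15 the abutting pair. Neighbouring motifs within 20 bp were found in 30.9% of these members (28.6 to 33.3%), in 22.3% of flanking windows with 2 to 5 motifs (16.8 to 28.5%) and in 25.5% of all bins with 2 to 5 motifs. Over all 1592 members the share was 34.5% (32.1 to 36.9%), since all 83 members with 6 or more motifs count as close. The groups with 2 to 5 motifs differ in motif number. Exactly 2 were held by 1161 of the 1509 members, 179 of the 211 flanking windows and 418033 of the 502760 bins. More motifs make a close pair more likely, so these shares do not compare spacing alone.

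Height in members with exactly 2 motifs is given here by arrangement, as a description. The median of the lower RPM was 1.37 for the 8 abutting pairs, 1.25 for the 11 palindromes, 1.204 for the 104 same-strand pairs at 8 to 13 bp, 1.41 for the 15 same-strand pairs at 4 bp and 1.25 for the 1023 members with other pairs. Below *Emsy*, the tallest abutting pairs lay in an intron of *Kif23* (2.55 RPM in library 1 and 3.32 RPM in library 2) and in an intron of *Ptprk* given to *Themis*, a gene of T cell selection (2.77 and 2.33 RPM). The tallest palindromes lay near *Lrfn3* (3.39 and 3.70 RPM) and *C1qtnf2* (3.36 and 3.28 RPM). The tallest same-strand pairs lay near *Bank1* (3.74 and 4.24 RPM, 12 bp), in an intron of *Cab39* (3.59 and 4.82 RPM, 10 bp), near *Pik3ip1* (3.77 and 3.53 RPM, 8 bp) and in an intron of *Stk39* (3.41 and 4.98 RPM, 13 bp). These sites other than the tallest of each arrangement were named after their values were seen.

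By number of motifs, 1161 members (72.9%) held 2, 270 held 3, 67 held 4, 11 held 5 and 83 held 6 or more, up to 28. The median of the lower RPM was 1.25, 1.29, 1.27 and 1.495 for 2, 3, 4 and 5 motifs, and the quartiles of the 1161 members with 2 motifs were 0.993 and 1.83 RPM. The 83 members with 6 or more motifs had a lower median of 1.02. Of their motifs 87.9% read AGATAG, against 22.6% in members with 2 to 5 motifs, and 33.7% of these members were soft-masked over at least 50% of the centre bin, against 2.58%.

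The members with 6 or more motifs also stood apart in how the libraries divided. Their median was 1.02 RPM in library 1 and 1.54 RPM in library 2, and library 2 was higher in 79 of 83 (95.2%, interval 88.1 to 98.7%). Among members with 2 to 5 motifs library 2 was higher in 34.4% (32.0 to 36.9%), with medians of 1.58 RPM in library 1 and 1.33 RPM in library 2. The same held in all bins with 6 or more motifs, taken by sequence alone with under 50% soft-masked bases, where the mean was 0.196 ± 0.00297 RPM in library 1 and 0.237 ± 0.00433 RPM in library 2. It was not seen in the 174 such bins without any soft-masked base, where 0 bins passed the limit. Of these, 38.5% held no read in either library. Their means were 0.0853 ± 0.00985 and 0.0766 ± 0.00942 RPM in libraries 1 and 2, which do not differ beyond these errors. The deposited reads had passed the authors' filter for unique position, and with reads of mapping quality 30 or more alone the number of members was 1583. The part of read placement in the gap between the libraries was not tested. The member with 28 motifs, near *Tmem123*, had 0.993 and 1.45 RPM in libraries 1 and 2. The next, in introns of *Slc15a1* (24 motifs) and *Spats2l* (23 motifs, given to *Sgo2a*), had 1.09 and 1.91 RPM and 0.840 and 1.62 RPM. Among listed genes, the tallest members of *Runx1*, *Tgfbr2*, *Ifngr1*, *Lck*, *Stat4* and *Fasl* were of this kind.

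The division of reads between the libraries was tested at each site with the two-sided exact binomial test against the share of all counted reads, adjusted over all 10800 sites. Because each site had to reach the limit in both libraries with these same reads, sites high in 1 library alone were left out beforehand, and the p-values hold read counting error only. Over all sites, 0.157% were higher in library 1 and 0.222% in library 2 at an adjusted p below 0.05. Among members 4 of 1592 were higher in library 1 (0.251%) and 6 in library 2 (0.377%). With the libraries scaled by their reads in all sites, 1 member was higher in library 1 and 11 in library 2, against 0.102% and 0.389% of all sites. With the reads of the whole site in place of the centre bin, 149 members differed (9.36%, 81 higher in library 1 and 68 in library 2), against 7.19% of all sites. Thinning library 1 to the depth of library 2 left 1 of 1583 members (0.0632%), against 0.0372% of all sites. A limit of 1.6 RPM left 1 of 507 (0.197%), against 0.147%. A total of 187 members (11.7%) had an unadjusted p below 0.05 in the centre bin, against 9.44% of all sites. The smallest p was found near *Galnt3*, with 38 reads in library 1 (0.967 RPM) and 64 reads in library 2 (2.66 RPM), a log2 ratio of -1.46 (adjusted p = 0.00241, exact binomial test). The others among the 3 smallest lay near *1190002N15Rik* (0.865 and 2.41 RPM, log2 ratio -1.48) and in an intron of *Cdc20b* given to *Gpx8* (1.17 and 2.78 RPM, log2 ratio -1.25). At *Tgfbr1*, a receptor of TGF-β, an intronic member was higher in library 1, with 90 reads (2.29 RPM) against 24 reads (0.997 RPM, adjusted p = 0.0431, exact binomial test). The member of *Ifngr1*, with 16 motifs, was higher in library 2, with 58 reads (2.41 RPM) against 38 reads (0.967 RPM, adjusted p = 0.0095, exact binomial test). The test compares libraries, not conditions, and at this depth it found mainly large gaps in simulated sites. It recovered 35.5% of simulated sites with a 2-fold and 84.5% with a 3-fold difference. The simulated counts held read counting error only and were not required to reach the limit in both libraries. Every real site had to reach it, so these rates do not describe the test on the real sites.

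Members lay at a median of 21.9 kb from the nearest gene start, and sites with 1 motif at 21.4 kb. By the annotation, 56.8% of members lay in introns (interval 54.3 to 59.2%), 33.04% were intergenic, 4.46% lay in exons and 5.72% in other, non-coding genes, where intron means inside a protein-coding gene but outside the exons of the basic transcripts. Sites with 1 motif lay in introns in 57.2%. Among all bins 46.7% did, and among bins with several GATA motifs 44.5%. The GC content of the centre bin had a median of 42.5% in members, 45% in sites with 1 motif and 38.5% in all bins with several motifs. Members were dispersed, with a median of 184 kb between neighbours and 160 members (10.1%) within 10 kb of another.

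Of 20780 protein-coding genes, 6.48% had the nearest start to a member and 26.2% to a site of any kind. Of the 1347 genes with a member, 1150 had 1, 162 had 2, 25 had 3, 8 had 4 and 2 had 5 or more. The number was highest at *Cytip*, with 6 members among 11 sites, and at *Bach2*, which encodes a repressor of effector differentiation, with 5 members among 14 sites. The tallest at *Cytip* was among the 12 tallest of all members, and the other 5 had a lower RPM between 1.02 and 1.58. A gene is named for a site by distance alone, which does not show that the site regulates it.

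In a list of 11 cytokine genes of TH2 cells, 5 genes had a member (*Il4*, *Il13*, *Il3*, *Csf2* and *Il10*) and 9 had a site of any kind. The tallest member of *Il13* lay at chr11:53655201-53655400 in an intron of *Rad50*, 20599 bp upstream of the start of *Il13*, and held 141 reads in library 1 (3.59 RPM) and 114 reads in library 2 (4.73 RPM). It held 3 motifs. At *Il4*, which encodes the cytokine that induces the TH2 fate, the taller of 2 members lay at chr11:53605601-53605800 with 2.01 and 1.99 RPM. That of *Csf2*, the gene of GM-CSF, had 2.80 and 2.66 RPM, while those of *Il3* (0.916 and 0.955 RPM) and *Il10* (0.891 and 0.872 RPM) were near the limit. *Il5* had a site of another kind and no member.

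Of 29 transcription factor genes of helper T cells, 15 had a member. The tallest lay in an intron of *Zfpm1* at chr8:122284401-122284600, where the libraries gave 4.91 and 4.36 RPM. All 3 sites of *Zfpm1* were members, and this one was 3400 bp wide, the greatest width of any member. The tallest member of *Nfkb1*, which encodes the NF-κB subunit p105, had 4.35 and 4.57 RPM, and that of *Rbpj*, the DNA-binding effector of Notch signalling, 3.08 and 3.53 RPM. Those of *Irf4* (3.03 and 2.66 RPM), *Tcf7* (3.31 and 2.57 RPM) and *Stat5a* (3.003 and 1.99 RPM) were higher in library 1, but none of these gaps passed the library test. The only member given to *Gata3* itself lay 78867 bp upstream of its start in an intron of *Taf3*, with 1.04 and 0.997 RPM. It was also the only site of any kind given to *Gata3*.

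Of 24 cytokine and chemokine receptor genes on these chromosomes, 12 had a member and 22 a site of any kind. Apart from *Ccr4*, the tallest belonged to *Il18rap* (2.65 and 2.95 RPM), a subunit of the IL-18 receptor, *Il7r* (2.39 and 2.66 RPM) and *Cxcr4* (2.34 and 2.28 RPM). The member of *Il1rl1*, which encodes the IL-33 receptor, had 1.502 and 0.997 RPM. Of 19 genes of T cell receptor signalling, 6 had a member, with that of *Zap70*, a kinase of the pathway, as the tallest (3.996 and 2.86 RPM).

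Among integrin, adhesion and mTOR genes taken from the study, 6 of 12 had a member. That of *Itgav*, which encodes integrin αv, lay in an annotated exon at chr2:83745401-83745600, 21104 bp into the gene, and had 3.08 RPM in library 1 and 3.61 RPM in library 2. That of *Itgb3*, which encodes integrin β3, lay in an intron at chr11:104632601-104632800 with 1.15 and 1.12 RPM and held 3 motifs. *Rictor*, a subunit of mTOR complex 2, had an intronic member with 1.73 and 1.83 RPM.

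Members were not limited to genes of TH2 cells. Of 10 genes of TH1 cells, 5 had a member, among them *Ifng* (2.47 and 2.33 RPM), the signature cytokine of TH1 cells, and *Tbx21* (1.63 and 1.62 RPM), which encodes T-bet. Of 10 erythroid and mast cell genes, where GATA factors also act, 3 had a member, namely *Gata2* (3.26 and 2.33 RPM), *Mitf* (1.30 and 1.204 RPM) and *Cpa3* (1.604 and 1.83 RPM). Of 6 genes of B cells and 6 of myeloid cells, 0 had a member, while 2 and 1 of them had a site of another kind. Of 5 genes of ILC2, 1 had a member (*Il1rl1*) and 3 had a site of any kind. These lists are short and were not tested against the background of 6.48%.

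**Figure D5:**
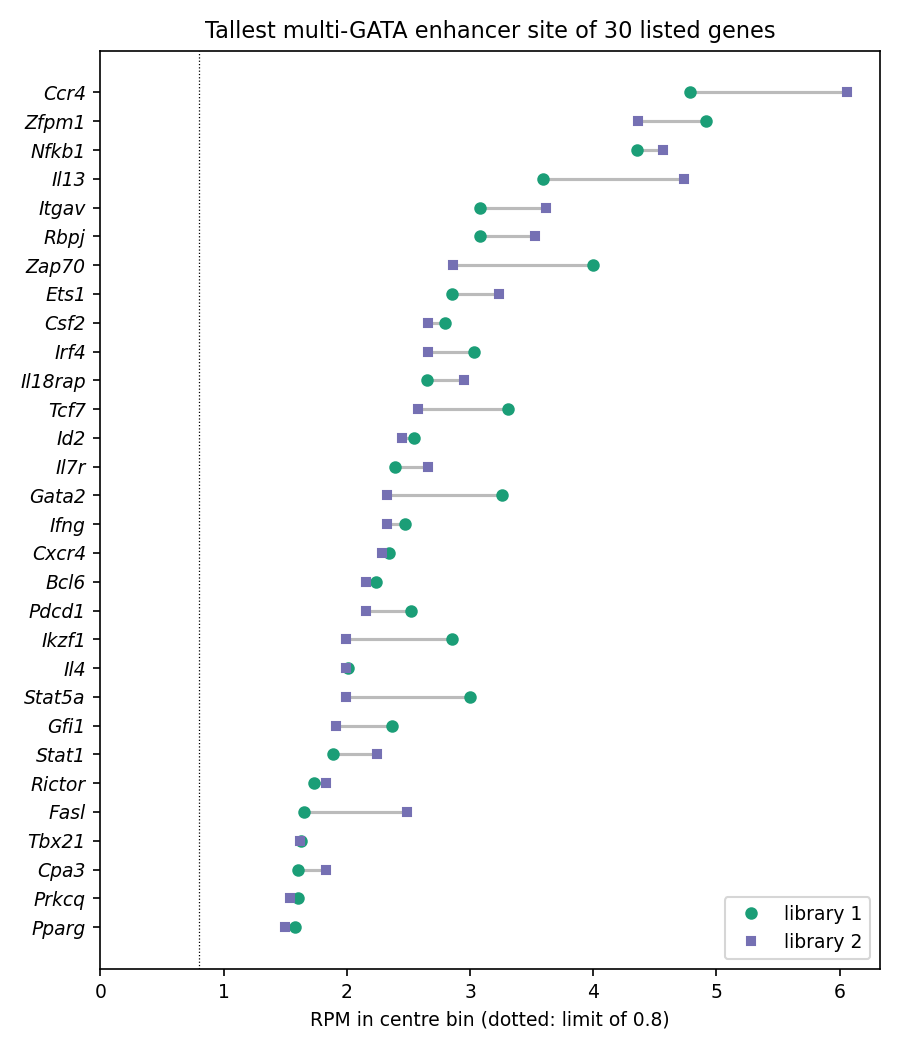
RPM in the centre bin of the tallest enhancer site with several GATA motifs, in library 1 (circles) and library 2 (squares). Shown are the 30 reported list genes with the highest lower value, in that order, and list genes with lower values are left out. The dotted line marks the limit of 0.8 RPM; *Ccr4* (4.79 and 6.06 RPM), *Zfpm1* (4.91 and 4.36 RPM) and *Nfkb1* (4.35 and 4.57 RPM) are the highest.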

How the data were processed

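The authors aligned single reads from a run of 50 bases to GRCm38 with Bowtie2 2.3.5.1 (default settings) and kept uniquely placed reads only. The submitters' processing notes also name MACS2 2.1.2, whose role is not given in the sources used here. Each read kept was deposited with its position, strand and a score, which is its mapping quality (22 to 44) and says nothing of binding. A value of 44 is higher than Bowtie2 gives end to end by default, and the deposited alignments span 50 bases for only 65.0% and 63.6% of reads in libraries 1 and 2, so the settings used are in doubt. In both libraries 0 reads shared a 5′ end and strand, so duplicates had been removed, which limits how high a site can rise.

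Bins, RPM, sites, motifs and spacings were computed from these reads, with gene starts from GENCODE M21 and bases and soft-masking from the NCBI GRCm38.p6 sequence. The library test was a two-sided exact binomial test with Benjamini-Hochberg adjustment over all sites, checked on simulated reads. The members and gene lists were chosen with earlier results of these data known. Sites named by rule were the 12 tallest, the 3 with the most motifs and the tallest of each orientation at its most frequent spacing. So were the 3 smallest p, those nearest the limit and the tallest of each list gene. Others, such as that near *Pitrm1* and those below the tallest of each arrangement, were named outside this rule. The result for 1 list gene is not reported here. Alternatives covered the height limit, each library alone, mapping quality, thinning, bin position, shift, motif, masking and start sites. Computations used Python 3.11.15, NumPy 2.4.6, SciPy 1.17.1, pandas 2.3.3, numba 0.67.0 and Matplotlib 3.10.9.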

Additional observations from a re-analysis of the deposited data

How the results depend on the processing

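No paired analysis was possible because both libraries are of the same condition. The number of members went from 1592 to 872 with a limit of 1.2 RPM, 507 with 1.6 RPM, 618 with motifs within 50 bp and 341 with AGATAA as the motif, each stricter by construction, and from 1899 to 2833 with each library alone. The ratio of median heights, several motifs over 1, was 1.07 with AGATAA and 0.985 to 1.02 under the other alternatives. The same sites gave 1.03 by their RPM in library 1 and 1 in library 2 (SD 0.024). The share of members with neighbouring motifs within 20 bp was 51.3% with motifs within 50 bp, 22.9% with AGATAA, and 33.1 to 38.5% with each library alone. The share of passing bins, several motifs over 1, was 1.49 with a limit of 1.2 RPM, 1.49 with 5′ ends moved by 50 bp, 1.54 with motifs within 50 bp, 1.49 without overlapping motifs, and 1.54 to 1.57 with each library alone. Members that differed between the libraries numbered 10, 12 with the libraries scaled by reads in all sites, 6 at an adjusted p below 0.01, 149 with the reads of the whole site, 1 with a limit of 1.6 RPM and 1 with library 1 thinned, beside 41, 53, 18, 777, 5 and 4 of all sites. The last has fewer reads by construction, the whole site has more, and otherwise the cause was not tested.

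The alternatives for the arrangements were chosen after seeing the data. With soft-masked bins included, the density over other pairs, averaged over the libraries, was 1.43 for minus then plus at 5 bp, 1.83 for plus then minus at 6 bp and 1.42 for same strand at 8 to 13 bp, against 1.27, 1.53 and 1.26 without them. For minus then plus at 5 bp it was 1.23 without any soft-masked base and 1.16 in bins under the height limit alone. In each library alone the ratios were 1.25 to 1.29, 1.41 to 1.65 and 1.197 to 1.32. The arrangements were picked for their density in these same libraries, so ratios above 1 follow from that choice and are no further evidence. At this depth the library test found mainly large gaps in simulated sites.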

Other observations

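Motifs of other factors were counted in the centre bin of members, on either strand. The TCF motif CTTTGA was found in 18.4% of members (exact 95% interval 16.5 to 20.5%), 17.3% of sites with 1 GATA motif, 14.5% of sites with neither GATA nor AP-1, 14.9% of flanking windows and 14.8% of all bins. The ETS motif AGGAAG was found in 26.2% of members (24.04 to 28.5%), 23.2% of flanking windows and 22.02% of all bins. Sites with 1 GATA motif held it in 28.2% and sites with neither GATA nor AP-1 in 28.8%. The RUNX motif TGTGGT was found in 16.5% of members and 18.7% of sites with 1 GATA motif, the T-box motif TCACAC in 12.9% and 15.3%. Sites with neither motif held them in 20.1% and 15.8%, flanking windows in 15.1% and 11.9% and all bins in 14.8% and 11.7%. The NFAT motif TGGAAA was found in 16.9% of members, 18.2% of sites with 1 GATA motif and 19.7% of all bins. The reversed GATA letters RATAGW, which can share letters with WGATAR, were found in 49.8% of members and 29.7% of sites with 1 GATA motif. Sites with neither GATA nor AP-1 held them in 19.2%, flanking windows in 29.1% and all bins in 30.1%. These are matches of letters and were not tested.

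The letters of the GATA motifs differed too. Of the motifs in members with 2 to 5, 40.3% read AGATAA, against 47.3% in sites with 1 motif and 28.3% over chromosomes 1 to 19. AGATAG made up 22.6%, against 18.1% in sites with 1 motif and 27.3% over the chromosomes. Among sites with 1 motif the median height did not depend much on the letters, at 1.204 RPM for AGATAA and AGATAG, 1.25 RPM for TGATAG and 1.29 RPM for TGATAA.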
